A study of Mus musculus with 4 samples.

Results

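Histone lysine methyltransferases and demethylases outside the G9a group, 37 genes chosen by name, were followed in MC38 tumours of mice treated with vanoxerine or saline. All 37 were found in the annotation, and all 37 passed the low-count filter, among 18758 genes tested. MC38 is a mouse colon adenocarcinoma cell line, injected here into mice, and the libraries come from primary tumours. Both groups received 10 consecutive daily intraperitoneal injections, of saline in the control group and of vanoxerine at 25 mg/kg in the treated group, and each group had 2 libraries. The drug is known as a blocker of dopamine reuptake. Neither strain, sex nor age of the mice is labelled, nor whether different animals gave the 2 tumours of a group. The p-values therefore reflect library-to-library spread alone, which may not be a spread between animals.

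The tails of histones carry methyl groups on defined lysines, and each lysine has its own writers and erasers. Methylated H3K4 marks active promoters and enhancers, H3K36 and H3K79 methylation accompany transcribed gene bodies, H3K27 methylation by Polycomb repressive complex PRC2 and H3K9 methylation accompany silencing, and H4K20 methylation is tied to chromatin compaction and the cell cycle. SET domain proteins and DOT1L add the groups; the flavin-dependent LSD enzymes and the JmjC family, which needs oxygen, iron and 2-oxoglutarate, take them off. In tumours these enzymes act both in the cancer cells and in the leukocytes around them.

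The 37 genes were sorted by target residue. Of these, 20 were called higher and 5 lower in vanoxerine by edgeR's quasi-likelihood test at an adjusted p under 0.05, and 12 were not called. Of all genes tested, 21.0% were called higher and 15.9% lower. The largest changes, of Nsd1 and Kdm7a, were just under a doubling, and 0 of the 37 reached a log2 fold change of 1 in size. By residue, both H3K27 demethylase genes and all 4 H3K36 methyltransferase genes were called higher, whereas 0 of the 4 genes of the H3K27 writing complex PRC2 were called. Of the 4 H3K36 methyltransferase genes, Nsd1 alone kept its call with upper-quartile scaling, with a transcript length offset and without either vanoxerine library. The H3K9 demethylase genes went both ways, 3 higher and 3 lower. The median log2 fold change of the 37 genes was 0.19, against -0.01 over all genes tested.

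The levels in the single libraries are given as CPM (a gene's share of a library's reads, with TMM scaling). In CPM, both vanoxerine libraries lay above both saline libraries for 23 of the 37 genes and below both for 8, and the groups overlapped for 6. Over all genes tested these shares were 35.8% above and 34.9% below. The libraries held 67289273 to 75748162 estimated reads, and the 37 genes had mean levels between 22.3 and 143 CPM, so each rests on at least 1417 reads in every library.

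**Figure D1:**
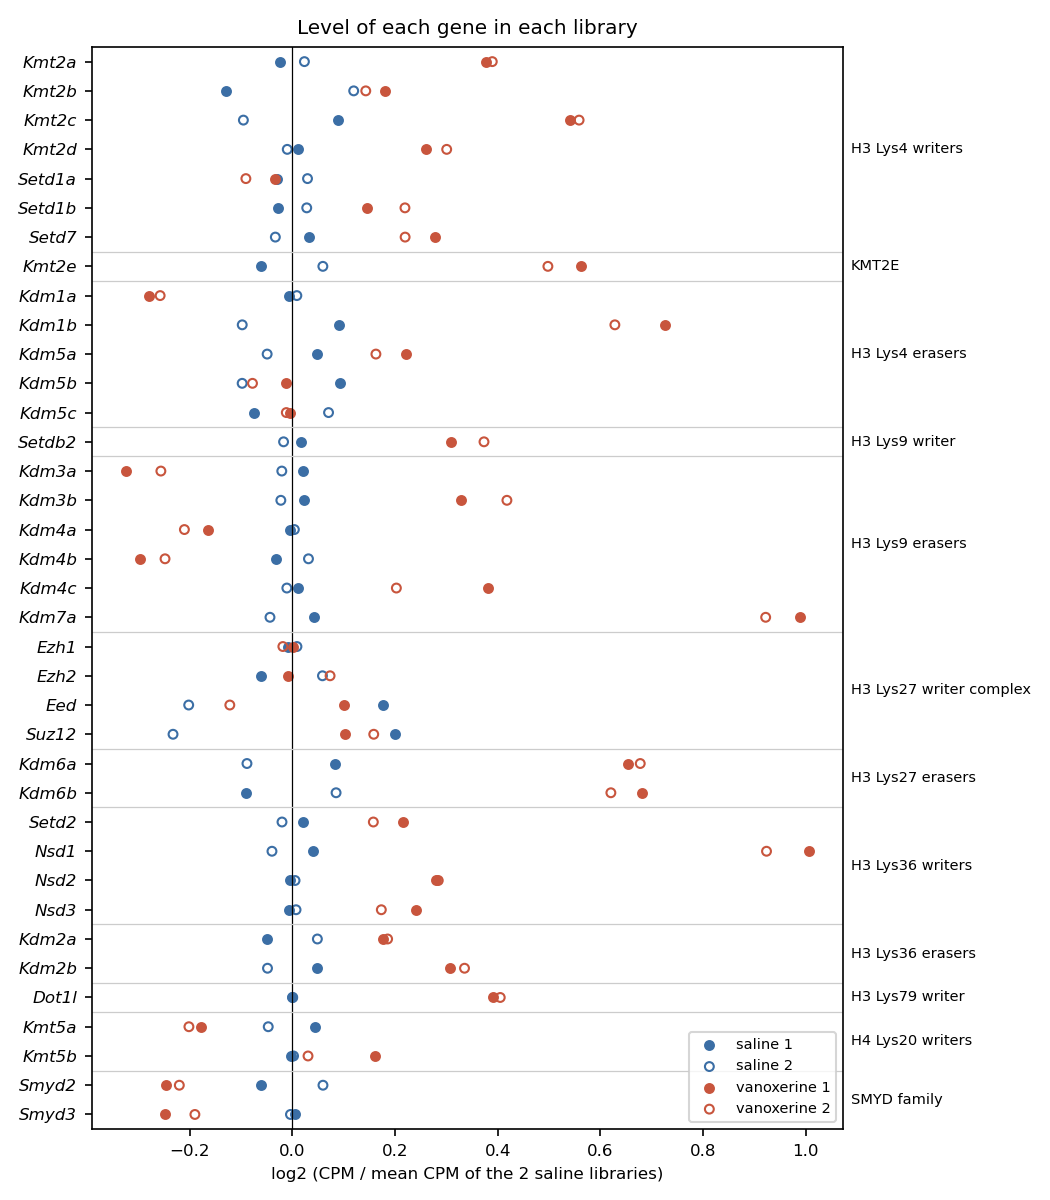
Each row is a gene and each point a library, placed at the log2 of its CPM over the mean CPM of the saline libraries; filled points are replicate 1 and open points replicate 2 of saline (blue) and vanoxerine (red). Nsd1 and Kdm7a lie farthest to the right, Kdm3a and Kdm4b are among the genes to the left, and the 4 genes of the H3K27 writer complex overlap between groups.

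Markers of other cells moved with the groups. All 8 macrophage markers were called higher, and their summed level was 471 and 503 CPM in saline, against 2806 and 2818 CPM in vanoxerine. Fibroblast markers fell in 6 of 7 (493 and 483 CPM in saline, 252.5 and 251.9 CPM in vanoxerine), erythroid markers in 5 of 5 and neutrophil markers in 3 of 5. Of 6 endothelial markers 1 rose and 4 fell, and their sum was 134 and 132 CPM in saline, against 137 and 139.7 CPM in vanoxerine. T cell markers summed to 389.7 and 396 CPM in saline, against 346 and 328 CPM in vanoxerine, with 1 of 6 called higher and 2 lower. B cell markers summed to 9.23 and 8.76 CPM in saline, against 18.75 and 18.76 CPM in vanoxerine, and Cd79b among them was called higher, at 2.86 ± 0.15 on the log2 scale. The part of these cells in the changes of the 37 genes was not tested, and in bulk tumours more or fewer cells of a type and more or less RNA per cell cannot be told apart. Of 8 markers of colon epithelium, Cdx2 had 0 reads, Krt20 had 47 reads in all and Vil1 152, so these defining markers of the labelled tissue were at or near 0. The 8 summed to 16.9 and 19.7 CPM in saline, against 35.6 and 37.2 CPM in vanoxerine. Epcam, Krt19 and Cdh1 were called higher, Cdh1 with 11.3 and 13.5 CPM (saline) against 25.4 and 27.6 CPM (vanoxerine). Krt19 was low as well, with 275 reads in all. Krt8, Krt18 and Vil1 were not called, and Krt20 and Cdx2 were not tested.

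Transcript length moved with these changes, over all genes and not only over the 37. Among the 6201 tested genes with a mean CPM in the range of the 37 genes, 36.0% were called higher and 21.0% lower. Of the 976 among them with a mean effective length of at least 4000 bases, 59.9% were called higher and 7.58% lower, and their median log2 fold change was 0.34, against 0.03 for the shorter ones. Many of the 37 genes are long: 16 of the 37 were at least 4000 bases, of which 11 were called higher and 1 lower, and of the 21 shorter ones 9 were called higher and 4 lower. The share called higher among the long ones is near that of other long genes of like level. Shorter genes of like level were classed as under 1000, 1000 to 2000, 2000 to 3000 and 3000 to 4000 bases. In this order 14.6%, 26.3%, 40.4% and 50.5% were called higher, and 43.4%, 25.2%, 14.1% and 9.87% lower. Across the 37 genes Spearman's rho of length with log2 fold change was 0.53, and across the genes of like level it was 0.41; these values are descriptions, and the points share libraries. These length limits were chosen after the data were seen, and what makes length and fold change move together was not tested.

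Set beside genes of like CPM and like length, 6 of the 37 lay above the upper quartile of log2 fold change (Nsd1, Kdm7a, Kdm1b, Kdm6a, Kdm6b and Setdb2), 10 below the lower quartile and 21 between. The 10 were Kdm3a, Kdm1a, Kdm4a, Kdm4b, Kdm5b, Kdm5c, Setd1a, Ezh1, Smyd2 and Smyd3. Quartiles by definition cut off equal shares of the background genes at the top and at the bottom, so these counts are descriptions. Nsd1 exceeded the median of its length class by 0.57 and Kdm7a by 0.56, and Kdm1b by 0.55. Kdm4a was the farthest below its class, at -0.49 relative to the class median. Kdm1b, at 2977 bases, and Kdm4a, at 4089 bases, lie at an edge of their classes, so their distances depend on the class limits. Their class medians were 0.13 and 0.31, against 0.24 in the class of 3000 to 4000 bases between them. Setdb2 was placed by a TPM-weighted effective length of 1588 bases. Of its TPM, the retained intron Setdb2-203 of 720 bases held 60.9% and 41.1% in saline, against 35.8% and 40.6% in vanoxerine. The coding transcript Setdb2-205 has 2995 bases. In the class of 2000 to 3000 bases the upper quartile was 0.38, above the 0.34 of Setdb2.

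**Figure D2:**
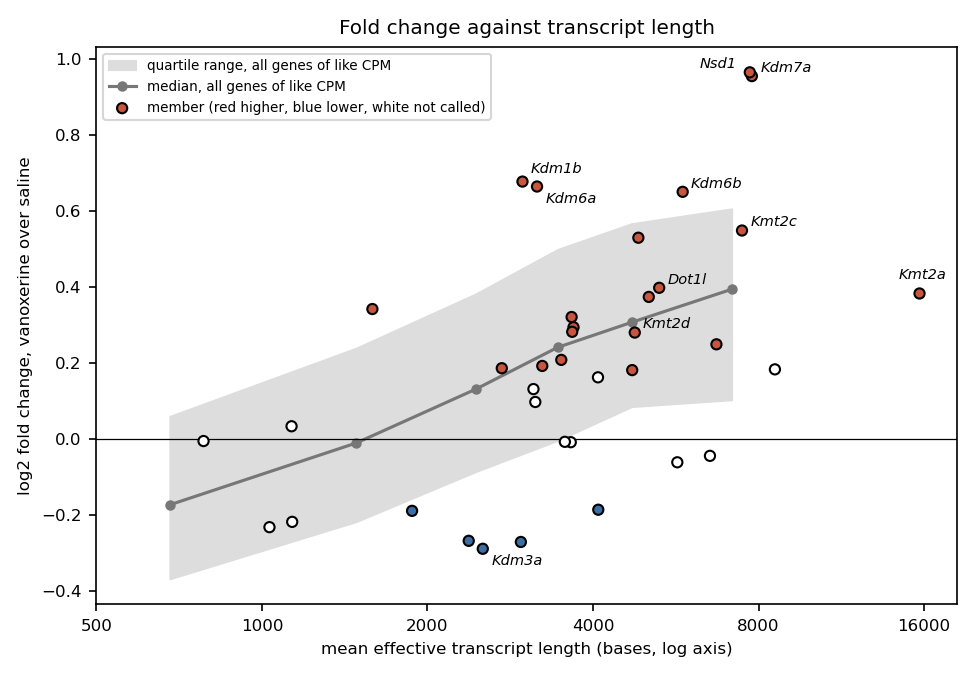
The horizontal axis is the mean effective transcript length in bases on a log axis and the vertical axis the log2 fold change; the grey line and band are the median and the quartiles of all genes of like CPM in 6 length classes, and the points are the 37 genes (red called higher, blue called lower, white not called). The grey line climbs from -0.17 in the shortest class to 0.39 in the longest. Kdm1b, Kdm6a, Kdm6b and Setdb2 stand above the band, and Nsd1 and Kdm7a lie higher still, to the right of its end.

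At H3K27 the eraser genes were called higher and the writer complex was not; the difference between them was not tested. The demethylase gene Kdm6b (JMJD3; chromosome 11, 69398508 to 69413675, reverse strand, GRCm38), known in macrophages as a gene induced by inflammatory stimuli, stood at 76.6 and 86.5 CPM (saline) against 131 and 125 CPM (vanoxerine). Its log2 fold change was 0.65 ± 0.070 (SE; edgeR adjusted p = 0.00111). Kdm6a (UTX; chromosome X, 18162575 to 18279936, forward strand) stood at 32.4 and 28.8 CPM (saline) against 48.1 and 48.9 CPM (vanoxerine), a log2 fold change of 0.67 ± 0.077 (SE; edgeR adjusted p = 0.00140). In both genes all vanoxerine values lay above all saline values, and their fold changes, 1.57 and 1.59, were alike in size. Kdm7a (chromosome 6, 39136623 to 39206789, reverse strand), a JmjC enzyme that acts on H3K27 as well as on H3K9, rose, with 34.2 and 32.2 CPM (saline) against 65.8 and 62.9 CPM (vanoxerine), a log2 fold change of 0.96 ± 0.062 (SE; edgeR adjusted p = 0.000167), close to a doubling in either vanoxerine library. All 3 of these genes were called higher in each of 19 alternative analyses. The 19 include the main test read at an adjusted p under 0.1, which genes called at 0.05 pass by construction.

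The genes of the writing complex were not called. Ezh2, the main catalytic subunit of PRC2, which is highest in dividing cells, stood at 72.2 and 78.5 CPM (saline) against 74.9 and 79.3 CPM (vanoxerine), and its log2 fold change was 0.03 ± 0.062 (SE; edgeR adjusted p = 0.725). Its relative Ezh1, the catalytic subunit of non-dividing cells, stood at 56.6 and 57.4 CPM (saline) against 57.1 and 56.3 CPM (vanoxerine), with values closer together than 2 CPM in all 4 libraries. Eed, the subunit that binds trimethylated H3K27, had 29.2 and 22.4 CPM (saline) against 27.7 and 23.7 CPM (vanoxerine). Suz12, the scaffold subunit, had 136 and 101 CPM (saline) against 128 and 133 CPM (vanoxerine), and here saline replicate 2 was the low library. The groups overlapped in all 4 genes. The precision differed: the SE of the log2 fold change was 0.050 for Ezh1 and 0.062 for Ezh2, but 0.133 for Suz12 and 0.145 for Eed, so a change of the size seen in Kdm6a would be several SE in each, while one of the size seen in Kdm2a would not be detectable in Suz12 or Eed. Without saline replicate 1 Suz12 was called higher, at 0.36, and without saline replicate 2 it was at -0.06. Of 6 proliferation markers 1 was called lower, Cdk1, with 133 and 142 CPM (saline) against 123 and 122 CPM (vanoxerine), a log2 fold change of -0.17 ± 0.051 (SE; edgeR adjusted p = 0.0467), and the sum of the 6 was 1352 and 1350 CPM in saline, against 1356 and 1344 CPM in vanoxerine.

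Promoter windows from RefSeq (GRCm38.p6, the 250 bases before the annotated start) were at hand for 25 of the 37 genes. The windows of Kdm7a and Kdm6a are shown because these genes rose, and that of Kdm3a because it fell and because the Kdm3a gene is known to be induced in hypoxia. Capitals mark ACGTG and GCGTG, the core letters of the hypoxia response element, on either strand; overlapping matches run together, and CACGTG, an E-box, holds ACGTG on both strands. The Kdm7a window is chr6:39206774-39207023 (reverse strand), that of Kdm6a chrX:18162325-18162574 (forward strand) and that of Kdm3a chr6:71632918-71633167 (reverse strand).
Kdm7a: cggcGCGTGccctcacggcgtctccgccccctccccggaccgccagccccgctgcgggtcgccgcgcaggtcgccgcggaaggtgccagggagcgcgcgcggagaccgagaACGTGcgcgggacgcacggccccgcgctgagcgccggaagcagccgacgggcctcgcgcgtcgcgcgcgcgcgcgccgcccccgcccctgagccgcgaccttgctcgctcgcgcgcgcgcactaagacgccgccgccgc
Kdm6a: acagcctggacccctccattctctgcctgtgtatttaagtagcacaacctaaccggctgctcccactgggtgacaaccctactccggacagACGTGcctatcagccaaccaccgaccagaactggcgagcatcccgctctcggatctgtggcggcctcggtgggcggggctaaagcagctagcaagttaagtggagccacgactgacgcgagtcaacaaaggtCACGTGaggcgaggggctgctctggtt
Kdm3a: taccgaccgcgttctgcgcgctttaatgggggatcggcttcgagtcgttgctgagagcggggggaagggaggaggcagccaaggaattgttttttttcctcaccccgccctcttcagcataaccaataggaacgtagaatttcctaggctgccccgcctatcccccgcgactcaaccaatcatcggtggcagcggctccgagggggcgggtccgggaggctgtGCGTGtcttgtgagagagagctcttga
The Kdm7a window holds 56 CpG dinucleotides, the most of the 25 windows, against 15 in Kdm6a and 20 in Kdm3a. ACGTG stands in the windows of 5 of the 25 genes and in 16.6% of all 32851 windows of this length in the RefSeq table; GCGTG stands in 13 of the 25 and in 28.2% of all. Kdm6a has 3 matches of ACGTG and Kdm3a has 1 of GCGTG and 0 of ACGTG. The AP-1 letters TGANTCA stand in 2 of the 25 windows (Kdm4a and Kdm5c) and in 6.75% of all, and the E2F letters TTTNNCGC in 1 (Suz12) and in 4.28% of all. These matches describe letters in the window and not binding. Each of the 25 genes has only the window of its start farthest upstream, whereas the shares of all count every window. The windows were not matched for CpG content, and both ACGTG and GCGTG hold a CpG.

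At H3K36, writers and erasers were both called higher. Nsd1 (chromosome 13, 55209782 to 55318325, forward strand), which adds dimethyl marks to H3K36, stood at 36.6 and 34.7 CPM (saline) against 71.6 and 67.6 CPM (vanoxerine), a log2 fold change of 0.97 ± 0.062 (SE; edgeR adjusted p = 0.000161), the largest of the 37. Nsd2, another H3K36 dimethyltransferase, stood at 112 and 112 CPM (saline) against 136 and 136 CPM (vanoxerine), a log2 fold change of 0.28 ± 0.044 (SE; edgeR adjusted p = 0.00464). Nsd3 had 122 and 123 CPM (saline) against 145 and 138 CPM (vanoxerine), and its log2 fold change was 0.21 ± 0.048 (SE; edgeR adjusted p = 0.0192). Nsd1 thus changed by 1.95-fold and its relatives by 1.22-fold and 1.15-fold, all without overlap between groups. Setd2, the enzyme of trimethylated H3K36 in transcribed genes, stood at 82.8 and 80.5 CPM (saline) against 94.8 and 91.1 CPM (vanoxerine), a log2 fold change of 0.19 ± 0.050 (SE; edgeR adjusted p = 0.0316). Setd2 was called in only 8 of the 19 alternatives and was at 0.03 with a transcript length offset; Nsd2 was called in 13 and Nsd3 in 15. In the authors' deposited table Nsd1 is the one of these 4 genes called higher, with Setd2 at 0.03, Nsd2 at 0.25 and Nsd3 at 0.14 on the log2 scale. The erasers Kdm2b, which also brings a Polycomb complex to CpG islands, and Kdm2a were called as well. Kdm2b had 38.1 and 35.7 CPM (saline) against 45.6 and 46.5 CPM (vanoxerine), a log2 fold change of 0.32 ± 0.064 (SE; edgeR adjusted p = 0.0110). Kdm2a had 104 and 112 CPM (saline) against 122 and 123 CPM (vanoxerine), a log2 fold change of 0.18 ± 0.053 (SE; edgeR adjusted p = 0.0418). For both erasers the vanoxerine values lay above the saline values. Kdm2a was called in 9 of the 19 alternatives, with log2 fold changes from 0.05 to 0.64 over them, and Kdm2b in 16.

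Of the 7 H3K4 methyltransferase genes, 4 were called higher, 0 lower and 3 were not called. Kmt2c (MLL3), an enzyme of enhancers, stood at 24.9 and 21.9 CPM (saline) against 34.0 and 34.5 CPM (vanoxerine), a log2 fold change of 0.55 ± 0.085 (SE; edgeR adjusted p = 0.00434). Kmt2a (MLL1; chromosome 9, 44803355 to 44881296, reverse strand), required for Hox gene expression, stood at 51.8 and 53.5 CPM (saline) against 68.3 and 69.0 CPM (vanoxerine), a log2 fold change of 0.38 ± 0.050 (SE; edgeR adjusted p = 0.00229). Kmt2d (MLL4), the close relative of Kmt2c, had 81.4 and 80.3 CPM (saline) against 96.8 and 99.5 CPM (vanoxerine), a log2 fold change of 0.28 ± 0.048 (SE; edgeR adjusted p = 0.00624). All 3 separated the groups without overlap, with replicates that lay closer together in vanoxerine for Kmt2a and Kmt2c. Setd7, a monomethyltransferase that also acts on non-histone proteins, had 43.6 and 41.6 CPM (saline) against 51.6 and 49.6 CPM (vanoxerine), a log2 fold change of 0.25 ± 0.060 (SE; edgeR adjusted p = 0.0213).

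The other 3 writers of H3K4 were not called. Kmt2b (MLL2) stood at 64.5 and 76.7 CPM (saline) against 80.0 and 77.9 CPM (vanoxerine), where the saline libraries were far apart, and its log2 fold change was 0.16 ± 0.087 (SE; edgeR adjusted p = 0.202). Setd1b, a catalytic subunit of the SET1 complexes, was at 0.18 ± 0.071 (adjusted p = 0.0961) and Setd1a, the other one, at -0.06 ± 0.052 (adjusted p = 0.401). Kmt2e (MLL5), a relative of this family for which H3K4 methyltransferase activity has not been shown, rose, with 42.9 and 46.7 CPM (saline) against 66.1 and 63.2 CPM (vanoxerine). Its log2 fold change was 0.53 ± 0.064 (SE; edgeR adjusted p = 0.00171), and it was not called with the length offset or with TPM.

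Among the H3K4 demethylase genes the LSD pair moved apart. Kdm1b (LSD2), which acts in gene bodies and in imprinting, rose, with 38.7 and 34.0 CPM (saline) against 60.1 and 56.1 CPM (vanoxerine), a log2 fold change of 0.68 ± 0.082 (SE; edgeR adjusted p = 0.00168). Kdm1a (LSD1), the catalytic subunit of the CoREST complex, fell, with 116 and 117 CPM (saline) against 96.0 and 97.5 CPM (vanoxerine), a log2 fold change of -0.27 ± 0.046 (SE; edgeR adjusted p = 0.00616). For neither gene did the groups overlap. Kdm1b was called in all 19 alternatives. The fall of Kdm1a was called in 13, ended without either vanoxerine library, and was 0.03 on the log2(TPM + 1) scale, on which the median of all genes lay at 0.13. Kdm5a (JARID1A), a JmjC demethylase of trimethylated H3K4, had 76.7 and 71.8 CPM (saline) against 86.5 and 83.1 CPM (vanoxerine), a log2 fold change of 0.19 ± 0.057 (SE; edgeR adjusted p = 0.0426), called in 10 of the 19 alternatives. Kdm5b and the X-linked Kdm5c overlapped between groups, with log2 fold changes of -0.04 ± 0.089 and -0.01 ± 0.061. Kdm5c was called lower with a transcript length offset and in no other alternative.

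The H3K9 demethylases split evenly. Apart from Kdm7a, Kdm3b rose, with 43.2 and 41.9 CPM (saline) against 53.5 and 56.9 CPM (vanoxerine), a log2 fold change of 0.37 ± 0.060 (SE; edgeR adjusted p = 0.00514), as did Kdm4c, with 20.2 and 19.9 CPM (saline) against 26.1 and 23.1 CPM (vanoxerine), a log2 fold change of 0.29 ± 0.090 (SE; edgeR adjusted p = 0.0477). Kdm4c was not called without either vanoxerine library, at 0.215 without replicate 1 and 0.39 without replicate 2. Kdm3a (JMJD1A; chromosome 6, 71588972 to 71632990, reverse strand) fell, with 128 and 125 CPM (saline) against 101 and 106 CPM (vanoxerine), a log2 fold change of -0.29 ± 0.050 (SE; edgeR adjusted p = 0.00663). Kdm4b, another demethylase gene known to respond to hypoxia, had 43.3 and 45.2 CPM (saline) against 36.03 and 37.2 CPM (vanoxerine), a log2 fold change of -0.27 ± 0.062 (SE; edgeR adjusted p = 0.0178). Kdm4a, which acts on H3K9 and H3K36, had 82.5 and 83.0 CPM (saline) against 73.8 and 71.5 CPM (vanoxerine), a log2 fold change of -0.19 ± 0.048 (SE; edgeR adjusted p = 0.0271). For these 3 genes both vanoxerine values lay below both saline values. The falls were small, at most 1.22-fold, and 0 of the 5 genes that fell was called without vanoxerine replicate 1, without vanoxerine replicate 2, or with log2(TPM + 1). Setdb2, an H3K9 methyltransferase that interferon induces, rose, with 21.3 and 20.8 CPM (saline) against 26.1 and 27.3 CPM (vanoxerine), a log2 fold change of 0.34 ± 0.074 (SE; edgeR adjusted p = 0.0155). Setdb2 was called in 12 of the 19 alternatives, was at 0.14 with a transcript length offset, and is at 0.12 and not called in the authors' deposited table.

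Dot1l, which encodes the H3K79 methyltransferase, stood at 68.1 and 68.1 CPM (saline) against 89.3 and 90.2 CPM (vanoxerine), a log2 fold change of 0.40 ± 0.046 (SE; edgeR adjusted p = 0.00146). The saline libraries differed by under 1 CPM, and the rise was called in all 19 alternatives. Kmt5a, the H4K20 monomethyltransferase of the cell cycle, had 157 and 148 CPM (saline) against 135 and 133 CPM (vanoxerine), a log2 fold change of -0.19 ± 0.051 (SE; edgeR adjusted p = 0.0319); its sign turned with log2(TPM + 1), at 0.17. Kmt5b, which adds further methyl groups to H4K20, was at 0.10 ± 0.072 (SE; edgeR adjusted p = 0.352). Smyd2 and Smyd3, whose targets include proteins other than histones, had log2 fold changes of -0.23 ± 0.075 and -0.22 ± 0.072 with adjusted p of 0.0564 and 0.0597, just outside the threshold, and lower values in both vanoxerine libraries. Smyd2 was called lower in 6 of the 19 alternatives and Smyd3 in 7. The members nearest to the threshold on the inner side were Kdm4c, Kdm5a and Kdm2a, with adjusted p of 0.0477, 0.0426 and 0.0418.

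**Figure D3:**
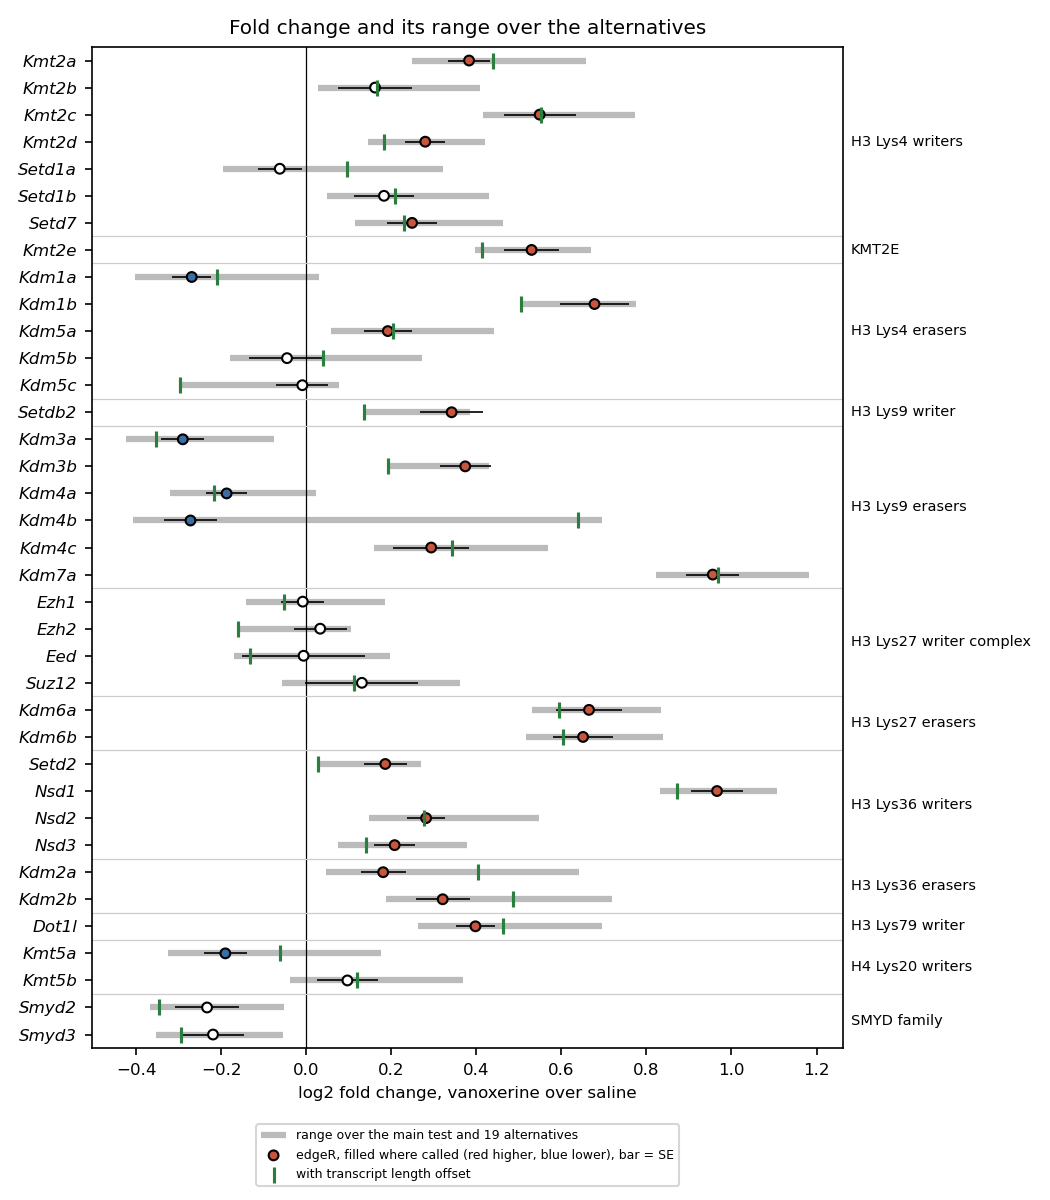
Points show the edgeR log2 fold change of each gene with its SE (red called higher, blue called lower, white not called), grey bars the range over the main test and 19 alternatives, and green ticks the value with a transcript length offset. The bars of Nsd1, Kdm7a, Kdm6a, Kdm6b, Kdm1b, Kmt2c and Dot1l begin at 0.26 or above, and the bar of Kdm4b spans -0.41 to 0.69.

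The 7 genes called higher in every alternative were Nsd1, Kdm7a, Kdm6a, Kdm6b, Kdm1b, Kmt2c and Dot1l. Their highest adjusted p over the main test and the alternatives was 0.0467, for Kmt2c. Kmt2a missed this by 1 alternative, with an adjusted p of 0.0531 without vanoxerine replicate 2. Without vanoxerine replicate 1 the counts were 10 higher and 0 lower, where 10.8% of all genes were called higher and 5.16% lower. Without vanoxerine replicate 2 they were 8 higher and 0 lower, where 10.3% of all genes were called higher and 4.87% lower. With an average transcript length offset 9 were called higher and 2 lower, where 13.9% of all genes were called higher and 9.07% lower. The 2 lower were Kdm3a and Kdm5c. With upper-quartile scaling, which moved the median of all genes to -0.14, 10 were called higher and 8 lower, where 15.4% of all genes were called higher and 24.1% lower. Setd1a, Smyd2 and Smyd3 were among these 8 and were not called in the main test. The calls of Kmt2d, Setd7, Kdm5a, Setdb2, Kdm4c, Setd2, Nsd2, Nsd3, Kdm2a and Kdm2b ended with upper-quartile scaling and without either vanoxerine library.

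The authors' deposited table of the comparison calls 12 of the 37 genes higher and 4 lower, where 20.3% of the genes with an adjusted p in it are called higher and 14.8% lower. In the authors' deposited table Kdm7a is at 0.96 (SE 0.11), Nsd1 at 0.83 (SE 0.18) and Kdm6b at 0.60 (SE 0.088) on the log2 scale. All 12 genes higher in the authors' deposited table were also called higher here, and 2 of its 4 lower ones, Kdm3a and Kdm1a, were called lower here. The other 2, Kdm5c at -0.28 and Smyd2 at -0.32 in the authors' deposited table, were not called in the main test here. Kdm5c was called lower in 1 of the 19 alternatives, the one with a transcript length offset. Its lowest log2 fold change over the alternatives was -0.30. Smyd2 was called lower in 6 of the 19. Kdm4b is at 0.20 in the authors' deposited table, against -0.27 here. The table also has 4 per-library columns whose names match no sample of the labels, so the libraries behind it remain unknown here.

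One short transcript moves the TPM of Kdm4b. Kdm4b-206 of 130 bases, annotated as a processed transcript, held 65.3% of the TPM of Kdm4b in vanoxerine replicate 2 on 5 reads, and had 0 reads in the other libraries. The TPM of Kdm4b was therefore 9.43 and 10.2 TPM (saline) against 9.44 and 26.7 TPM (vanoxerine). Over transcripts of at least 500 bases it was 9.425 and 10.15 TPM (saline) and 9.444 and 9.265 TPM (vanoxerine). A smaller case is Nsd1-205 of 852 bases, which had 46 reads and 0.848 of the 3.14 TPM of Nsd1 in saline replicate 2, and 0 reads elsewhere. In the same gene Nsd1-206 of 1001 bases held 1.98 of the 4.38 TPM in saline replicate 1 on 144 reads. It had 0 reads in saline replicate 2, and held 24.5% and 27.0% of the TPM of Nsd1 in vanoxerine.

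Among the 318 annotated transcripts of the 37 genes, 24 changed their share of the gene's TPM by at least 10 percentage points between group means; transcripts of other genes were not counted, so this is a description. Kdm1b-201, a coding transcript of 4987 bases, took 27.9% and 30.4% of the TPM of Kdm1b in saline, against 44.3% and 42.5% in vanoxerine. Kdm2b-202, of 5180 bases, took 27.3% and 23.4% of Kdm2b in saline, against 5.24% and 11.8% in vanoxerine. Ezh2-213, a retained intron fragment of 500 bases, took 53.9% and 57.1% of the TPM of Ezh2 in saline, against 50.1% and 40.3% in vanoxerine. These shares are Salmon's estimates and have no test here; shared exons make them less certain than the gene totals.

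Levels between genes were compared per transcript length, as TPM. In saline the order ran from Kmt5a, with 62.9 and 58.5 TPM, and Ezh2, with 52.1 and 59.2 TPM, down to Setd1b, with 2.43 and 2.37 TPM. Kmt5a and Ezh2, at the top, overlapped within their spread, and the fragment named above holds most of the saline TPM of Ezh2. Kdm3a (40.5 and 39.5 TPM) and Kdm1a (37.95 and 36.88 TPM) came next and did not overlap with each other. At the low end Kmt2a, Kmt2c and Setd1b lay between 2.20 and 2.69 TPM in saline, where Kmt2c overlapped with both others. The genes called higher in every alternative were of low or middle level in saline: Kdm7a had 3.42 and 3.19 TPM (saline) against 7.88 and 7.39 TPM (vanoxerine), Nsd1 had 4.38 and 3.14 TPM (saline) against 7.95 and 8.28 TPM (vanoxerine) and Kdm6b had 11.1 and 11.1 TPM (saline) against 20.6 and 19.2 TPM (vanoxerine). The H3K27 demethylase genes Kdm6a and Kdm6b summed to 19.8 and 17.9 TPM in saline, against 33.8 and 33.6 TPM in vanoxerine, and the 4 genes of the PRC2 core to 125 and 125 TPM in saline, against 149 and 131 TPM in vanoxerine. On this scale the median of all genes was 0.13 higher in vanoxerine.

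**Figure D4:**
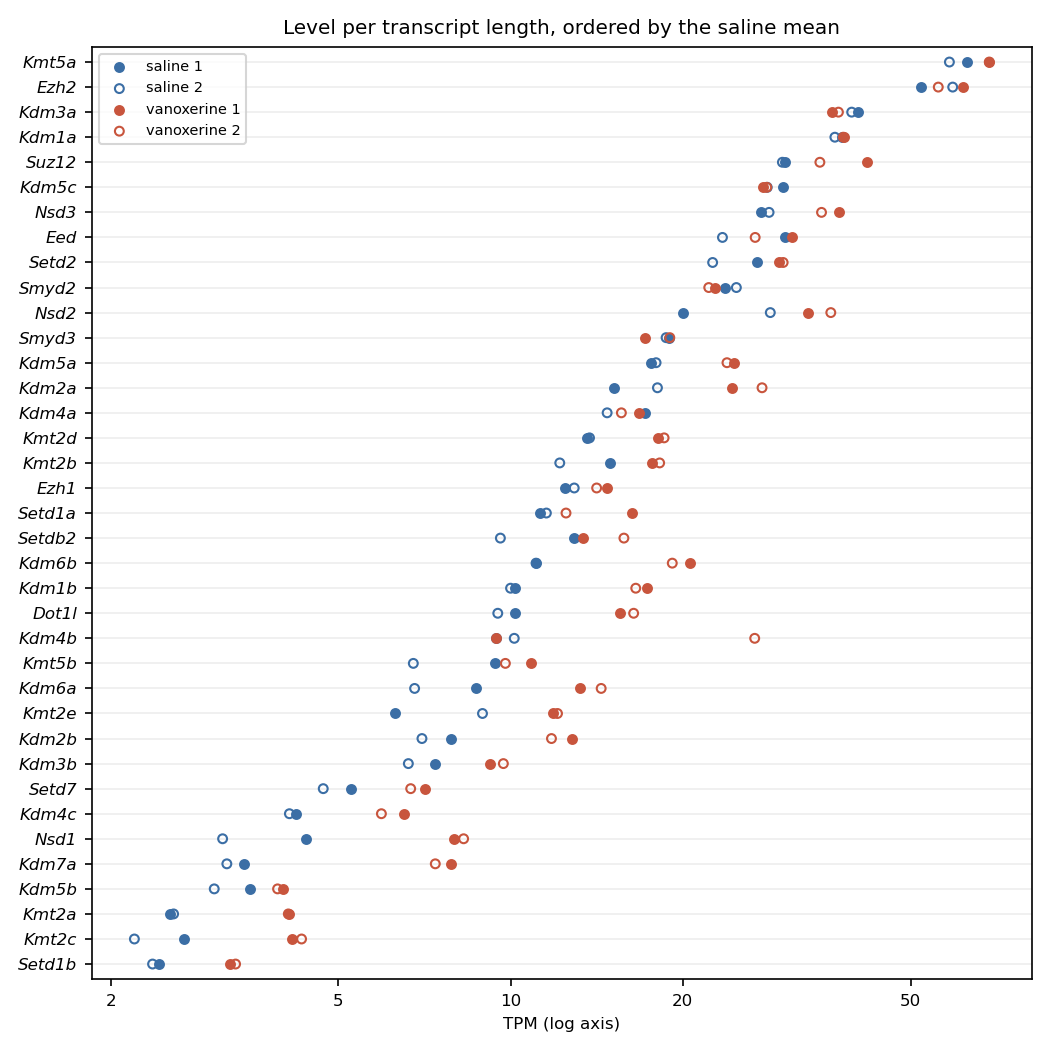
Each row is a gene, ordered by its mean TPM in saline, and each point is a library on a log axis of TPM (filled replicate 1, open replicate 2; blue saline, red vanoxerine). Kmt5a and Ezh2 are at the top and Setd1b at the bottom, and for Kdm4b the point of vanoxerine replicate 2 at 26.7 TPM stands apart from the other 3 libraries.

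The balance of related enzymes was measured as the log2 ratio of their TPM within each library, which no scaling between libraries can move. Of 12 pairs compared, 8 had groups that did not overlap, which is no more often than single genes did in CPM (35.8% above and 34.9% below over all genes tested). A two-sided exact permutation test of 2 against 2 libraries cannot go below p = 0.33 (0.5 after Benjamini-Hochberg adjustment over the 12 pairs), so these ratios are descriptions. Kdm1b stood to Kdm1a as 0.269 and 0.271 in saline, against 0.453 and 0.434 in vanoxerine, a log2 difference of 0.715. The ratio of Kdm3a to Kdm3b was 5.48 and 5.95 in saline, against 3.97 and 3.85 in vanoxerine, and that of Nsd3 to Nsd1 was 6.25 and 9.02 in saline, against 4.72 and 4.22 in vanoxerine. The ratio of Kdm4c to Kdm4a rose from 0.245 and 0.278 to 0.388 and 0.381. The saline libraries lay far apart for the ratios to Nsd1. Ezh1 to Ezh2, with 0.239 and 0.218 in saline, against 0.239 and 0.253 in vanoxerine, and Kdm6b to Kdm6a, with 1.27 and 1.63 in saline, against 1.56 and 1.33 in vanoxerine, overlapped between groups. The retained intron fragment Ezh2-213 enters the TPM of Ezh2 with the large share given above. The log2 difference of Ezh1 to Ezh2 was 0.107 with TPM and -0.042 with CPM.

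**Figure D5:**
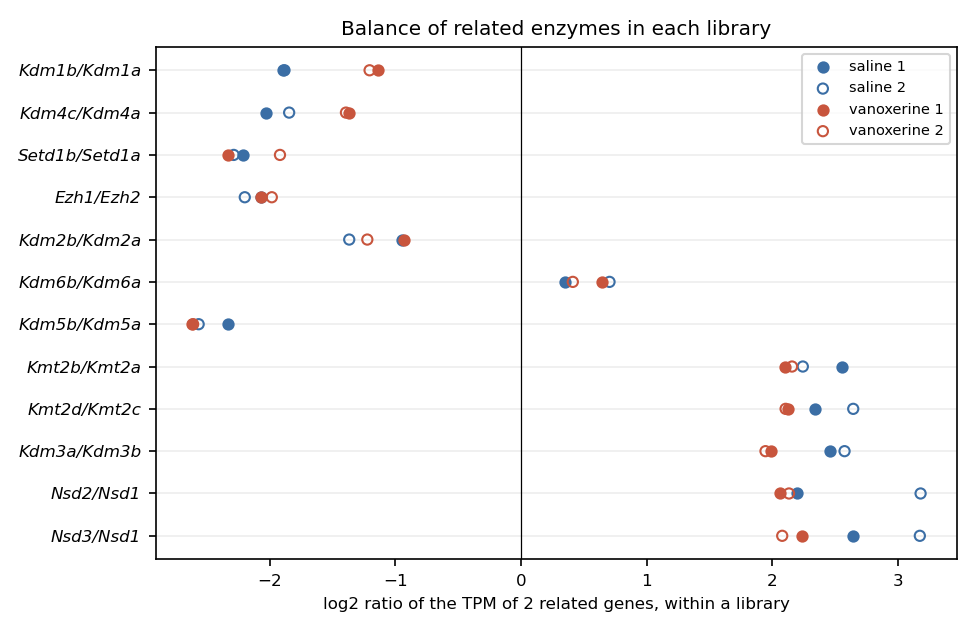
Each row is a pair of related genes and each point a library, placed at the log2 ratio of their TPM (filled replicate 1, open replicate 2; blue saline, red vanoxerine). The vanoxerine points of Kdm1b/Kdm1a lie near -1.2 and its saline points near -1.9, while the points of Kdm6b/Kdm6a interleave.

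The partners of these enzymes were counted from 7 lists with 90 genes, of which 86 were tested, 18 called higher and 21 lower, with a median log2 fold change of 0.01. The share called over all genes tested was 21.0% higher and 15.9% lower, so the count called higher is the background share; the counts of the single lists are small and are given as descriptions. Of the shared subunits and partners of the H3K4 methyltransferases, 2 of 13 were called higher and 5 lower. The shared subunit Ash2l fell by 0.28 and the tumour suppressor menin, Men1, by 0.37 on the log2 scale, and Pagr1a, a partner of Kmt2c and Kmt2d, was at -0.98 ± 0.19, while Hcfc1, a cofactor of the SET1 and MLL complexes, was at 0.42 ± 0.046. Of 8 accessory subunits of PRC2, 3 were higher and 0 lower: Jarid2, which guides PRC2 to its targets, went from 33.8 ± 2.45 to 52.4 ± 3.20 CPM (mean ± SD, n = 2), with Aebp2 at 0.22 ± 0.047 and Rbbp7 at 0.21 ± 0.060. Of 18 subunits of PRC1, the complex that binds methylated H3K27 and ubiquitinates H2A, 2 were higher and 6 lower. The chromodomain gene Cbx6 was at -0.81 ± 0.072, Pcgf2 at -0.50 ± 0.077, Phc3 at 0.52 ± 0.081 and Rybp at 0.39 ± 0.061.

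Of 12 genes of the LSD1-CoREST complex, 2 were called higher and 3 lower. The corepressor genes moved apart, Rcor1 with 101 and 108 CPM (saline) against 147 and 145 CPM (vanoxerine), and Rcor2 with 80.9 and 94.2 CPM (saline) against 56.5 and 53.2 CPM (vanoxerine). Their log2 fold changes were 0.48 ± 0.053 and -0.67 ± 0.083, and Kdm1a itself fell, as given above. Zmym3 was at 0.38 ± 0.074 and Hmg20b at -0.33 ± 0.065. Among 6 partners of Dot1l in elongation, 2 were higher and 0 lower, Aff1 with 0.74 ± 0.060 and Aff4 with 0.30 ± 0.053. Of 22 other SET and PRDM genes 4 were higher and 5 lower, with Prdm1 (Blimp-1) at 0.50 ± 0.064, Setd6 at -0.52 ± 0.075 and Prdm16 at -0.80 ± 0.15. Of 11 other JmjC genes 3 were higher and 2 lower. Jmjd1c, a relative of Kdm3a and Kdm3b, stood at 73.7 and 68.7 CPM (saline) against 122 and 128 CPM (vanoxerine), and Jmjd6 at 128 and 140.5 CPM (saline) against 78.5 and 82.3 CPM (vanoxerine). Phf2 was at 0.43 ± 0.086 and Hr at -0.46 ± 0.12.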

How the data were processed

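RNA from snap-frozen tumours, 2 per group, went into TruSeq RNA v2 libraries, per the labels' protocols. Fastp, Salmon 1.3.0, DESeq2 and GRCm38 are named by the submitters' processing notes, with no settings or annotation release. The authors deposited, per the file headers, Salmon's estimated count, TPM and lengths in bases for 140992 transcripts, and a table of the comparison with a base mean (a signal after their normalization), a log2 fold change with its SE, and p-values before and after adjustment. Its 4 per-library columns match no sample and were not used.

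Transcripts were assigned to 54115 genes with GENCODE M21 (GRCm38), which held 99.56% to 99.63% of reads. Estimated counts were summed per gene and rounded. edgeR 4.0.16 (R 4.3.3) tested vanoxerine against saline on all genes (TMM; minimum count 10, minimum total 15; quasi-likelihood; Benjamini-Hochberg adjusted p under 0.05) and was tested on simulated data. SE comes from the F statistic. Alternatives used limma 3.58.1, DESeq2 1.42.0, other scalings, filters, pseudocounts of 1 and 0.1 for TPM, left-out libraries and, for the main fit, an adjusted p under 0.1. Between replicates, chi-square per gene was 37.5 in saline and 12.2 in vanoxerine, where 1 is sampling noise, so each library counted. Total estimated reads were 75748162 and 70274527 in saline and 70564325 and 67289273 in vanoxerine. Reads that fit several genes are divided by estimate.

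Named genes followed a rule: called members with every library's value; other members by range or count, and by name where a related member was called or an alternative changed a call; and of each partner list up to 4 called genes with the smallest p, of which 1 is not reported here. The 37 genes, the lists and the motifs were chosen with earlier results of these data known.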

Additional observations from a re-analysis of the deposited data

How the results depend on the processing

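Over 19 alternatives, 301 values of the 20 genes called higher kept direction and call and 79 kept direction only. Of the values of the 5 genes called lower, 64 kept both, 19 direction only and 12 turned sign. The 19 include the main fit at an adjusted p under 0.1, where calls at 0.05 are kept by construction. Median-of-ratios scaling, DESeq2, limma-voom and no low-count filter changed no call among the 37. The counts over the 37 genes, 20 higher and 5 lower, moved to 10 and 8 with upper-quartile factors and to 9 and 2 with the length offset. The 2 lower with the length offset were Kdm3a and Kdm5c, and Kdm5c was not called in the main test. The count moved to 0 lower with log2(TPM + 1), log2(TPM + 0.1) or log2(TPM + 1) over transcripts of at least 500 bases. Leaving out 1 library gave 8 to 22 higher and 0 to 7 lower of the 37, and 2113 to 5446 higher and 994 to 4262 lower of all genes; a group with 1 library left takes its spread from the other one. The counts over all genes, 3933 higher and 2983 lower, moved to 2604 and 1701 with the length offset, and the lower ones to 4525 with upper-quartile factors, 870 with log2(TPM + 1), 834 with log2(TPM + 0.1) and 907 over transcripts of at least 500 bases. The cause was not tested.

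The reversed values were, with log2(TPM + 1), log2(TPM + 0.1) and log2(TPM + 1) over transcripts of at least 500 bases, 0.029, 0.030 and 0.029 for Kdm1a, 0.023, 0.024 and 0.023 for Kdm4a, and 0.174, 0.177 and 0.174 for Kmt5a; for Kdm4b they were 0.658 and 0.695 with the first and second of these and 0.640 with the length offset, against -0.058 over transcripts of at least 500 bases. The limit of 500 bases was chosen after seeing the data. The labels number the libraries in both groups, but nothing says that a number pairs them: same-numbered libraries deviated from their group means with a correlation of -0.129 over 9803 genes. With the replicate block 16 of the 37 genes were higher and 3 lower (3757 and 2634 of all genes), and with the crossed block, added after seeing the data, 16 and 5 (3853 and 2756 of all genes). Each of the 37 genes had at least 1417 reads in every library; the effect of depth was not tested.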

Other observations

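Kdm5c and Kdm6a have relatives on the Y chromosome, Kdm5d and Uty. Both were too low to be tested: Kdm5d was at 0.0131 to 0.0455 CPM and Uty at 0.0152 to 0.144 CPM over the 4 libraries, while Kdm5c stood at 116 and 128 CPM (saline) against 122 and 121 CPM (vanoxerine).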
